A study of Saccharomyces cerevisiae with 3 samples.

Results

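Trehalose is a disaccharide of glucose that yeast cells make and degrade with 10 genes examined here, 4 for its synthesis (TPS1, TPS2, TSL1 and TPS3), 3 for trehalases (NTH1, NTH2 and ATH1) and 3 for the supply of sugar phosphates and UDP-glucose (PGM1, PGM2 and UGP1). The genes were chosen by name, with earlier results of these data known. All 10 were found among the 4069 named genes of the array, under their current symbols and with 7 spots each (70 of 45220 spots). Cells of BY4741, a haploid wild-type laboratory strain from which HIS3, LEU2, MET17 and URA3 are deleted in whole or in part, were grown in YPD rich medium at 30°C. They were exposed to NaCl at 0.4 M for 15 minutes or left untreated, and RNA of both conditions from each of 3 independent cultures was hybridized together to 1 two-colour array, stressed cells in Cy3 and untreated cells in Cy5. The labels and the methods give the duration as 15 minutes, and the results text of the paper gives a shorter one.

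Trehalose synthesis starts from glucose 6-phosphate. Phosphoglucomutase turns a part of it into glucose 1-phosphate, from which UDP-glucose is made, and the trehalose synthase complex then joins UDP-glucose to glucose 6-phosphate and removes the phosphate. Trehalases split the product into glucose. Trehalose is known as a protectant of proteins and membranes, and it builds up in yeast under heat and other stresses, whereas glycerol is the main compatible solute of yeast in high salt.

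Each value below is the mean, over the 7 spots of a gene, of the normalized log ratios that the authors deposited, taken as log2 of NaCl over untreated. Neither the log base nor the direction stands with the values, and both were settled on other genes. All 377 measured genes of the study's osmoresponsive table that are not among the 10 were above 0 on every array. Their lowest mean was 0.72 and the highest mean outside the table was 0.93. Read as log2 these are 1.65-fold and 1.90-fold, which bracket the fold change that defined the table, and read as natural logarithms or log10 they do not. The median over all genes was within 0.023 of 0 on each array, and a rise or fall common to the whole transcriptome is thus invisible here. Over all genes, replicates 2 and 3 correlated at 0.971 (Pearson), replicates 1 and 2 at 0.931 and replicates 1 and 3 at 0.890, a description over genes, which are not independent replicates. The deleted genes, which serve as a check of the strain, lay between -0.21 and 0.11 on any array, but a ratio cannot show that a transcript is absent. The dyes were not exchanged, so an effect of NaCl and a dye effect particular to a gene cannot be told apart, for any gene below. In a bulk culture, a change in RNA per cell and a change in the share of cells that express a gene cannot be told apart either.

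Trehalose genes were higher in stressed cells almost throughout, and 9 of the 10 rose past an adjusted p of 0.05 (limma, Benjamini-Hochberg over 4069 genes), none fell, and PGM1 did not pass. Of all named genes, 26.9% rose and 27.9% fell by the same rule. The members ran from TPS2 at 27.2-fold down to PGM1 at 1.12-fold, and 8 of the 10 exceeded 2-fold, against 269 of 4069 genes (6.61%). The median over the 10 genes was 1.97 ± 0.07 on the log2 scale (SD over the arrays, n = 3), against -0.01 ± 0.01 for all named genes. Of the 10, 8 belong to the study's osmoresponsive table, which was drawn up on these arrays, so that their direction is not independent evidence.

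**Figure D1:**
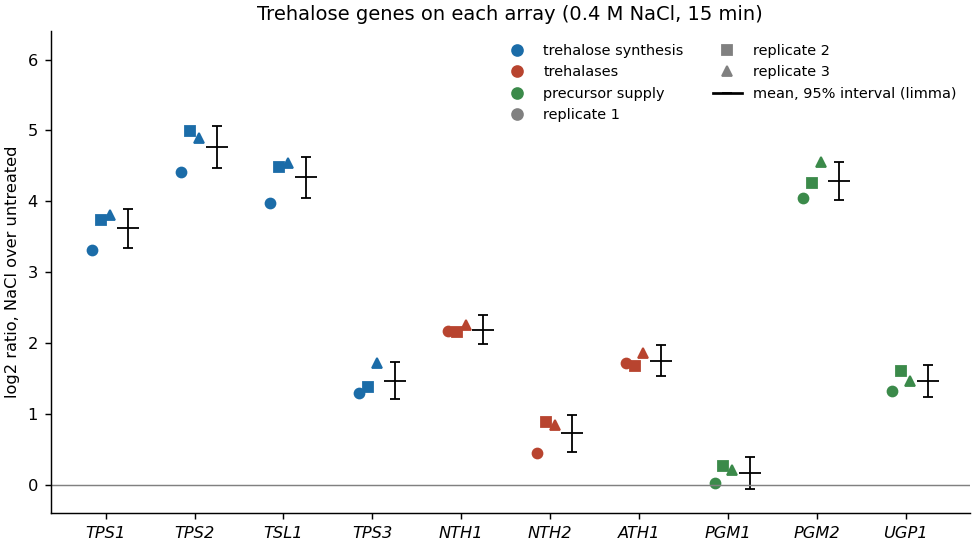
Log2 ratio of NaCl over untreated cells for each of the 10 genes on the 3 arrays (symbols by replicate, colours by role), with the limma mean and its 95% interval beside them. TPS2, TSL1, PGM2 and TPS1 lie above 3.3 on every array, and PGM1 lies between 0.03 and 0.26.

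The synthesis genes rose furthest as a group. TPS1, which encodes trehalose 6-phosphate synthase, had log2 ratios of 3.31, 3.74 and 3.80 on the 3 arrays, a mean increase of 12.3-fold (3.62 ± 0.27, SD, n = 3, adjusted p = 2.61e-07 from limma). TPS2, which encodes the phosphatase that removes the phosphate, stood at 4.41, 4.99 and 4.89, or 27.2-fold (4.76 ± 0.31, adjusted p = 7.47e-08). TPS2 was the highest of the 10 genes on every array. TSL1 encodes a large regulatory subunit of the same complex, and its ratios were 3.98, 4.49 and 4.54, or 20.2-fold (4.34 ± 0.31, adjusted p = 1.32e-07). TPS3, its paralogue and the other regulatory subunit, had 1.29, 1.38 and 1.72, or 2.76-fold (1.47 ± 0.23, adjusted p = 2.21e-05). The genes for the 2 catalytic subunits and TSL1 thus lay at 3.31 or above on every array, and no value of TPS3 came near them. The median of the 4 genes was 3.98 ± 0.29 on the log2 scale.

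The trehalase genes also rose, with a lower median than the synthesis genes. NTH1, which encodes the main neutral trehalase of the cytosol, had log2 ratios of 2.17, 2.15 and 2.25, a mean of 4.56-fold (2.19 ± 0.05, adjusted p = 9.81e-07 from limma). The 3 values lay within 0.095 of each other, the closest of any of the 10 genes. NTH2, its paralogue, had 0.44, 0.89 and 0.84, or 1.65-fold (0.72 ± 0.25, adjusted p = 0.00114), with replicate 1 well below the others. ATH1 encodes the acid trehalase, which splits trehalose outside the cytosol, and its ratios were 1.71, 1.67 and 1.86, or 3.36-fold (1.75 ± 0.10, adjusted p = 3.17e-06). The 3 genes did not overlap: every array placed NTH1 first, ATH1 next and NTH2 last. Their median was 1.75 ± 0.10, and every trehalase value lay below every value of TPS1, TPS2 and TSL1. NTH1 and ATH1 lay above TPS3 on every array, and NTH2 lay below it.

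Among the genes for precursor supply, the response was split between the isozymes. PGM2, which encodes the major phosphoglucomutase, had log2 ratios of 4.04, 4.25 and 4.55, a mean of 19.4-fold (4.28 ± 0.25, adjusted p = 8.21e-08 from limma). PGM1, the gene for the minor isozyme, had 0.03, 0.26 and 0.21, or 1.12-fold (0.16 ± 0.12, adjusted p = 0.182). The 95% interval of PGM1 ran from 0.960-fold to 1.31-fold, so that an increase of up to about this size is within the error of these arrays. Without replicate 1 its mean was 0.23 and the call was made (adjusted p = 0.0374), and over the other alternatives its adjusted p ran from 0.157 to 0.673. UGP1, which encodes UDP-glucose pyrophosphorylase, the step after phosphoglucomutase, had 1.32, 1.60 and 1.46, or 2.75-fold (1.46 ± 0.14, adjusted p = 1.19e-05). UGP1 thus stood between the isozymes on every array, nearer to PGM1.

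**Figure D2:**
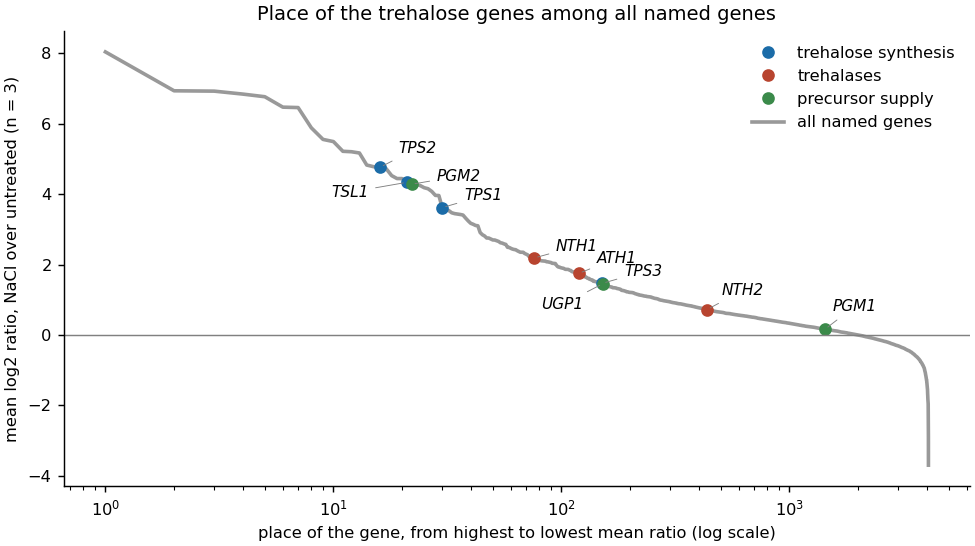
Mean log2 ratio of NaCl over untreated cells of all 4069 named genes (grey line) against their place from highest to lowest on a log axis, with the 10 trehalose genes as points coloured by role. TPS2, TSL1, PGM2 and TPS1 are at places 16, 21, 22 and 30, and PGM1 is at place 1431.

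Ordered by their mean over the arrays, the 10 genes ran TPS2, TSL1, PGM2, TPS1, NTH1, ATH1, TPS3, UGP1, NTH2 and PGM1. Among all 4069 named genes TPS2 held place 16, TSL1 place 21, PGM2 place 22 and TPS1 place 30, followed by NTH1 at place 76. ATH1 held place 119, TPS3 place 151 and UGP1 place 152. NTH2 was at place 435 and PGM1 at place 1431. The order was not resolved everywhere. TSL1 and PGM2 differed by 0.06 ± 0.16 on the log2 scale (SD, n = 3), with PGM2 the higher on 2 of the 3 arrays. TPS3 and UGP1 differed by 0.01 ± 0.24, and their order also changed between arrays. All other neighbours in this order kept the same order on all 3 arrays, although the values of TPS2 and TSL1, and those of ATH1 and TPS3, overlapped between arrays.

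To ask how far related genes differed in response, the log2 ratios of 8 pairs were subtracted within each array. PGM2 exceeded PGM1 by 4.02, 3.99 and 4.34, a mean of 4.12 ± 0.19 (SD, n = 3), so that the fold change of PGM2 was 17.3 times that of PGM1. TSL1 exceeded TPS3 by 2.68, 3.10 and 2.82 (2.87 ± 0.21, a ratio of folds of 7.31), and NTH1 exceeded NTH2 by 1.73, 1.26 and 1.41 (1.47 ± 0.24, a ratio of folds of 2.76). In each of the 3 paralogue pairs, 1 gene therefore responded more than the other on every array, by several times the SD between arrays. Between the catalytic subunits, TPS2 exceeded TPS1 by 1.15 ± 0.09, and TPS1 exceeded the regulatory TPS3 by 2.15 ± 0.18. Of the remaining pairs, NTH1 exceeded ATH1 by 0.44 ± 0.05. UGP1 exceeded PGM1 by 1.29 ± 0.05, and PGM2 exceeded UGP1 by 2.82 ± 0.24. An exact two-sided permutation test that flips the signs of the 3 differences gave p = 0.25 for each of the 8 pairs, also adjusted over the pairs, which is the smallest p that 3 arrays allow. This test could therefore pass no pair. Whether a spot of 1 paralogue also bound RNA of the other was not tested, since probe sequences were not used here.

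**Figure D3:**
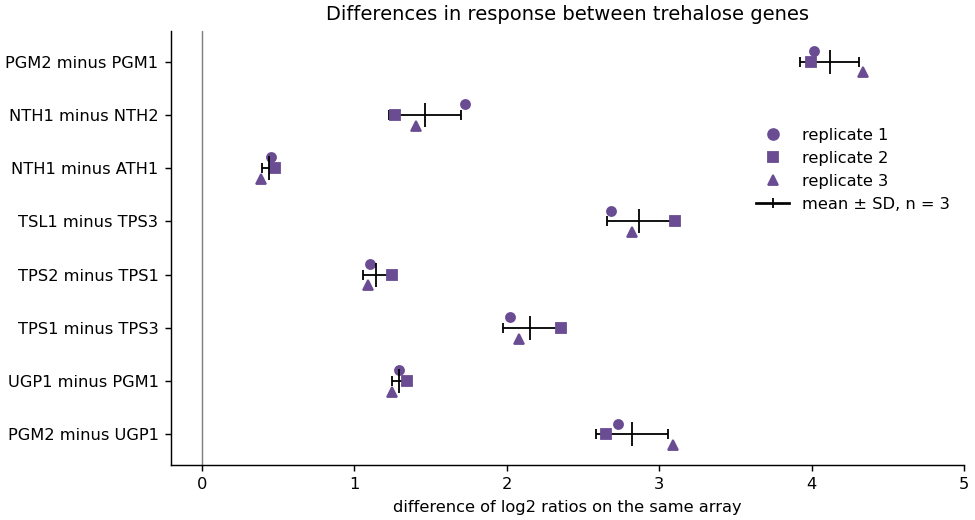
Difference of the log2 ratios of 2 genes on the same array for the 8 pairs (symbols by replicate), with the mean and SD over the 3 arrays. Every difference is above 0 on every array, from 0.39 for NTH1 minus ATH1 to 4.34 for PGM2 minus PGM1.

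The 7 spots of a gene varied little. Their SD on 1 array ran from 0.037 for TSL1 on replicate 2 to 0.179 for NTH2 on replicate 2, where 1 spot lay at 0.54 and the highest at 1.04. For 9 of the 10 genes the SD over the arrays was above the median SD between its spots. The exception was NTH1, with 0.051 over the arrays and 0.073 between spots. All 189 spot values of the 9 genes that rose were above 0. Of the 7 spots of PGM1, 4 were above 0 on replicate 1 and all 7 on replicates 2 and 3. Of the 10 genes, 8 had their lowest value on replicate 1, and NTH1 and ATH1 had theirs on replicate 2. Among all 1093 genes that rose, 508 (46.5%) were lowest on replicate 1, the array that correlated least with the others. The part of this array in the spread of the 10 genes was not tested.

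**Figure D4:**
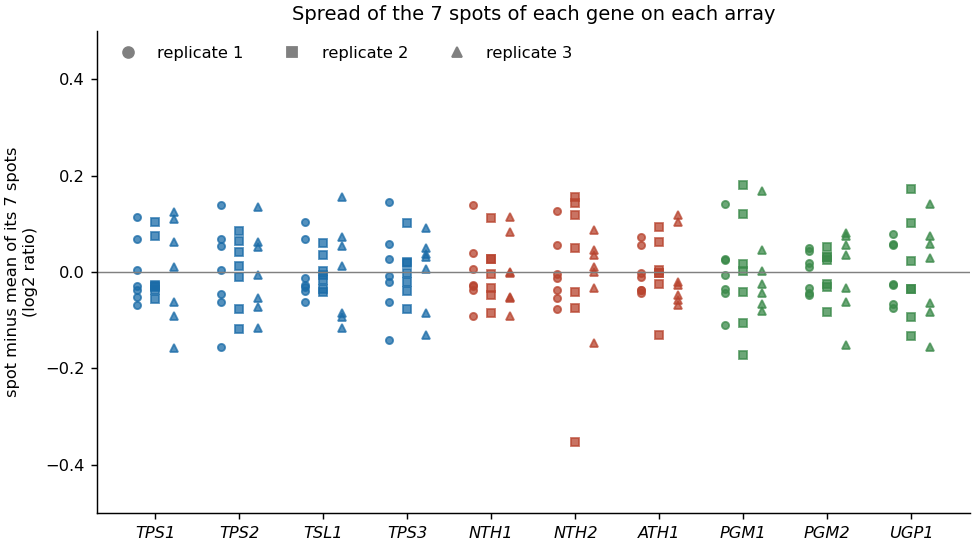
Deviation of each spot from the mean of the 7 spots of its gene on the same array, in log2 ratio, for the 10 genes and 3 arrays (symbols by replicate, colours by role as in the plot of values by array). Most spots lie within 0.2 of their mean, and 1 spot of NTH2 on replicate 2 lies further below.

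Genes around the pathway were counted in the same way, in lists chosen with earlier results of these data known. Upstream, glucose is phosphorylated by HXK1, HXK2, GLK1 and EMI2, a glucokinase homologue, and PGI1 connects glucose 6-phosphate to glycolysis. All 5 rose, against 26.9% of all genes, with EMI2 at 10.6-fold (log2 ratio 3.41 ± 0.37, SD, n = 3), HXK1 at 9.99-fold (3.32 ± 0.46) and GLK1 at 8.85-fold (3.15 ± 0.20). The median of this list was 3.13 ± 0.22. PGM2 thus stood above each of these genes, and PGM1 below each.

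UDP-glucose also serves glycogen, glucan, glycolipid and glycoprotein synthesis. Of 10 genes of enzymes that use or make it there or interconvert it with UDP-galactose (GSY1, GSY2, GLG1, GLG2, FKS1, GSC2, ALG5, ATG26, GAL7 and GAL10), 7 rose, 1 fell and 2 did not pass, beside 26.9% and 27.9% of all genes. The glycogen synthase genes GSY1 at 23.1-fold (log2 ratio 4.53 ± 0.51) and GSY2 at 10.7-fold (3.42 ± 0.33) were in the range of the trehalose synthesis genes. GLG1, which encodes a self-glucosylating initiator of glycogen, rose 2.50-fold (1.32 ± 0.27). ALG5, which encodes the enzyme that makes dolichol-phosphate glucose for glycoproteins, fell by 0.38 on the log2 scale (adjusted p = 0.0210 from limma), a call lost without replicate 2. The median of the list was 0.49, below that of the 10 trehalose genes and of the 4 synthesis genes, a description with no test. All 4 genes of glycogen branching and breakdown (GLC3, GPH1, GDB1 and SGA1) rose, beside 26.9% of all genes. The branching enzyme gene GLC3 did so by 21.8-fold (4.44 ± 0.29), SGA1, a glucoamylase gene known from sporulation, by 8.58-fold (3.10 ± 0.13) and the phosphorylase gene GPH1 by 4.91-fold (2.30 ± 0.35).

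The last list holds genes that act on trehalase or trehalose from outside the pathway. Protein kinase A phosphorylates Nth1, and the 14-3-3 proteins Bmh1 and Bmh2 bind the phosphorylated enzyme and activate it. The 6 genes reported here are BMH1, BMH2, TPK2, TPK3, BCY1 and MAL11. Of these, 5 rose, none fell and 1 did not pass, beside 26.9% and 27.9% of all genes. MAL11, which encodes a sugar symporter that also takes up trehalose, rose 2.16-fold (log2 ratio 1.11 ± 0.06). TPK2, a catalytic subunit gene of protein kinase A, rose 1.86-fold (0.89 ± 0.29), and BCY1, the gene of its inhibitory subunit, rose 1.75-fold (0.81 ± 0.05). The median of these 6 genes was 0.77 ± 0.13.

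**Figure D5:**
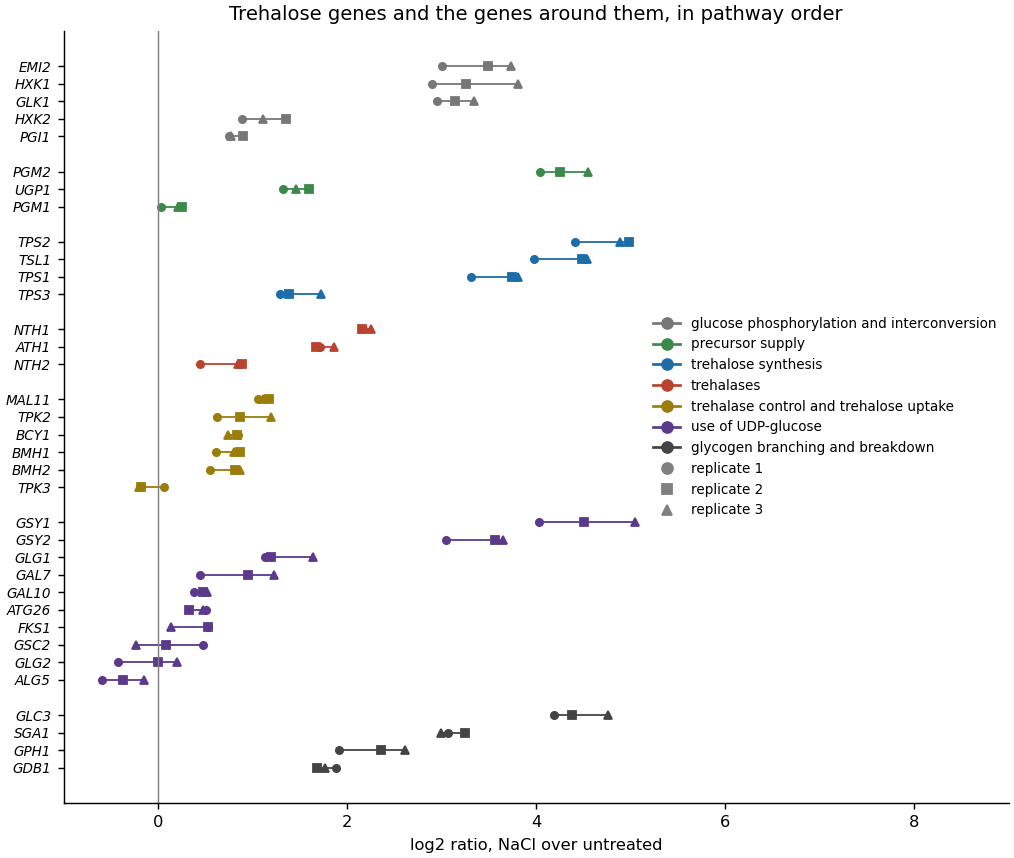
Log2 ratio of NaCl over untreated cells on the 3 arrays (symbols by replicate, a line spanning the lowest and highest array) for the 10 trehalose genes and the measured genes of 4 lists around them, grouped by list. PGM2, TPS2, TSL1, TPS1, GSY1 and GLC3 have the highest means, each above 3.3 on every array.

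The 10 genes lie on 5 chromosomes, and TSL1, TPS3 and PGM2 share chromosome XIII without lying next to each other. No gene next to a member overlaps it in the R64 gene table. Of the 20 positions beside the members, 13 held a measured gene, of which 5 rose, 3 fell and 5 did not pass, against 26.9% and 27.9% of all genes. The neighbours of TPS2 moved in opposite directions. PPH3, a protein phosphatase gene, fell by 1.35 ± 0.14 on the log2 scale (adjusted p = 1.75e-05 from limma). SNF11, which encodes a subunit of the SWI/SNF complex, rose 1.78-fold (0.83 ± 0.09). PGM1 and PGM2 lie next to YPK1 and YPK2, a pair of related protein kinase genes. YPK1 rose 1.46-fold (0.55 ± 0.14) and YPK2 1.58-fold (0.66 ± 0.23). YPK2 minus YPK1 was 0.41, -0.01 and -0.06 on the 3 arrays, a mean of 0.11 ± 0.26, whereas the adjacent PGM2 and PGM1 differed by 4.12 ± 0.19. This comparison was chosen after the values were seen.

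The study sorted responsive genes by their need for Hog1, the kinase that is activated by osmostress. It used these arrays, earlier data from a hog1 strain and, for the independent class, also Hog1 binding. Genes bound by Hog1 along their coding regions, but not judged dependent on it for expression, were counted as independent. Which basis placed a given gene in a list is not stated. TPS1, TPS2, TSL1, PGM2 and UGP1 stand in the study's Hog1-dependent list and NTH1 and ATH1 in its Hog1-independent list. TPS3 is in the osmoresponsive table but in neither of these lists, and NTH2 and PGM1 are in none of the 3. The Hog1 lists are chosen subsets of the responsive genes, so absence from both does not class a gene. The Hog1-dependent members ran from 1.46 for UGP1 to 4.76 for TPS2 on the log2 scale, and the Hog1-independent members were at 2.19 for NTH1 and 1.75 for ATH1. UGP1 thus lay below both Hog1-independent members on every array, and the other 4 Hog1-dependent members lay above both. Both lists were drawn from genes past a fold cutoff on these arrays, so these positions are not independent of the listing. These arrays hold no hog1 strain.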

How the data were processed

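Expression was measured on 3 two-colour arrays, 1 per culture. The authors deposited 1 normalized log ratio per spot, read here as log2. It was made with limma per the labels (version, background correction, normalization and spot filters not given in the sources used here). Spot intensities were not analysed, so dim spots could not be filtered. Of 45220 spots, 28532 carried a symbol in the platform annotation. Names were updated through the R64 gene table, which gave 4069 genes. Promoter, protein and probe sequences were not used here. Spots were averaged per gene and array. limma (version 3.58.1, R 4.3.3) fitted an intercept to the 3 ratios of every gene with empirical Bayes moderation and two-sided p-values. The false discovery rate was controlled after Benjamini-Hochberg over all 4069 genes at 0.05. The procedure was tried on simulated independent values in which few genes changed. Far more genes were called here, so the trial does not give the false discovery rate of these data. Each array holds both conditions and is its own block. The number of arrays limits the precision. Pairs were compared by exact sign-flip permutation. Lists are described by counts and by the median over genes per array, averaged over arrays. Named genes are the members, from each list up to 3 called genes that changed most and in 1 direction on every array, the called gene that moved most against its list, and the 4 called neighbours that changed most. Members and lists were chosen with earlier results of these data known. Alternatives were the median or trimmed mean of spots, centring, scaling, robust moderation, a threshold of 0.01 and leaving out each replicate. Summaries used Python 3.11.15, numpy 2.4.6 and pandas 2.3.3, and figures matplotlib 3.10.9. Some listed genes are not reported here.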

Additional observations from a re-analysis of the deposited data

How the results depend on the processing

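For the 9 trehalose genes that rose, direction and call were the same under every alternative, with NTH2 reaching the highest adjusted p (0.00345, limma). PGM1 passed only without replicate 1, and its log2 ratio ran from 0.12 to 0.23 over the fits that left out a replicate. The 8 differences between members kept their sign throughout, and with 2 arrays the exact test cannot go below p = 0.5. Of the genes that use UDP-glucose, the number that fell ran from 0 to 1 when a replicate was left out and was 0 at a threshold of 0.01, where ALG5 was lost. The number that rose in that list was 5 without replicate 2 and 6 at a threshold of 0.01, against 7. Among the neighbours, between 4 and 6 rose, against 5, and 2 or 3 fell, against 3. The number that rose was otherwise unchanged in each list around the pathway. The median of the UDP-glucose list was 0.490 with the median of spots, 0.507 with arrays centred and 0.507 with arrays centred and scaled, against 0.495. Over all genes, between 695 and 1340 fell when a replicate was left out, against 1135, and 774 at a threshold of 0.01, while between 777 and 1282 rose, against 1093. Centring or scaling set the median of all genes to 0, a shift of about 0.01.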
